A study of Homo sapiens with 8 samples.

Results

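Chromatin accessibility was followed at 48 genes of the BMP and TGF-beta pathway through 4 stages of cardiac differentiation. The genes were taken as a fixed list of ligands, receptors, SMAD proteins, ID proteins and secreted or membrane antagonists, by a rule that uses no measured value. The list was nevertheless chosen with earlier results of these data known. Peaks of 8 ATAC-seq libraries were merged into regions wherever they overlapped, and a region was assigned to a gene if it overlapped the gene's span in GENCODE release 44 (GRCh38) extended by 10 kb on either side. This gave 612 regions of 285909 in the genome, from 3 regions at ID4 to 51 at BMPR1B, with a median width of 340 bp. Of these, 2 regions lay within reach of both GDF2 and GDF10, which are neighbours on chromosome 10.

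BMP, activin and TGF-beta ligands are secreted dimers that bring together type I and type II serine/threonine kinase receptors. The activated receptors phosphorylate receptor SMADs, which enter the nucleus with SMAD4, and the ID genes are classic targets of the BMP branch, while proteins such as noggin and follistatin bind the ligands and keep them from their receptors. In the embryo these signals pattern the mesoderm and take part in specifying cardiac progenitors, endocardial cushions and trabeculae.

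All libraries came from RUES2, 1 human embryonic stem cell line that was differentiated in culture. ESC were collected on day 0, after a day in medium with CHIR-99021, an activator of Wnt signalling that the later stages had received as well. MES (mesoderm) cells were collected on day 2 after further CHIR-99021, CP (cardiac progenitors) on day 5 after Xav-939, an inhibitor of Wnt signalling, was added on day 3, and CM (cardiomyocytes) on day 14 after B27 supplement from day 7. Each stage had 2 libraries, described as biological replicates without naming separate cultures, so that every test below measures the spread between these libraries only. No purification of a cell type was described for the libraries, and in such bulk samples fewer cells with an open region cannot be told apart from a weaker opening in each cell.

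Each deposited list held the peaks that passed a q value of 0.01 and gave for each peak the fold enrichment of its signal over the local background, here called the fold. The lists held 55873 to 156282 peaks, with CM replicate 2 the shortest and replicate 2 of ESC and MES the longest. The regions of the 48 genes with a peak numbered 227 and 345 in ESC replicates 1 and 2, 250 and 342 in MES, 244 and 281 in CP, then 232 and 154 in CM. The lists hold no read counts, so that the depth behind a value is unknown, and an absent peak means only that no peak passed the threshold in that library. Folds were not scaled between libraries, so that statements below on overlapping folds compare unscaled values. Promoter peaks were set against the stage labels through marker genes. Of 5 pluripotency genes, 4 had a promoter peak in each ESC and MES library, 3 in each CP library and 2 in each CM library, with NANOG peaks in the ESC and MES libraries only and no peak at the canonical POU5F1 start site in any library. Of 6 cardiomyocyte genes, 2 and 3 had a promoter peak in the ESC libraries and 5 in each CM library, MYH7 being without one throughout. Of 5 cardiac progenitor genes, 2 and 3 had a promoter peak in the ESC libraries, 3 in each MES and CP library and 4 and 5 in the CM libraries, with TBX5 peaks in CM only, so that this set did not mark CP. The 5 mesoderm genes and the 4 neural genes had a promoter peak in all 8 libraries, and so did not separate the stages. Of 4 stromal genes 3 or 4, of 4 endoderm genes 1 to 3 and of 4 endothelial genes 0 to 3 had a promoter peak, depending on the library. At ACTA2, a smooth muscle and stromal marker, peaks were in the CP and CM libraries only. The part of other cell types in the results was not tested.

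Sequences of regions that appeared or disappeared are shown first, because the results below turn on when such regions were open. The first 8 run 100 bp to either side of the summit of the highest peak (hg38, plus strand), and the last gives the 250 bases before the BMP10 start site from RefSeq (GRCh38.p14), a table in which 42 of the 48 genes had a promoter. Capitals mark matches, on either strand, to short words: GATA factor words (AGATAA or AGATAG or TGATAA or TGATAG), the SMAD word CAGAC, the TCF/LEF word CTTTGAT, the T-box word AGGTGTGA and the NKX word TNAAGTG. The AP-1 word TGAGTCA and the GC-rich SMAD word GGCGCC were also searched and had no match in them.
BMP5 intron, ESC only, chr6:55782386-55782586: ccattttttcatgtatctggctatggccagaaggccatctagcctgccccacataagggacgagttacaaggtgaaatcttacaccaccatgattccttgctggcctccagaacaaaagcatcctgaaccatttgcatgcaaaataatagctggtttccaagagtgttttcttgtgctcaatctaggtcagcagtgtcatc
TGFBR3 intron, opened in MES, chr1:91876090-91876290: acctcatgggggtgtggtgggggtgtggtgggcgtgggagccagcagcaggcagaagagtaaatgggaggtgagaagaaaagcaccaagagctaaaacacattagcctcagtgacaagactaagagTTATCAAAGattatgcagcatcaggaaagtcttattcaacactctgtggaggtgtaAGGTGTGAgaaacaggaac
BMPER intron, opened in MES, chr7:34059510-34059710: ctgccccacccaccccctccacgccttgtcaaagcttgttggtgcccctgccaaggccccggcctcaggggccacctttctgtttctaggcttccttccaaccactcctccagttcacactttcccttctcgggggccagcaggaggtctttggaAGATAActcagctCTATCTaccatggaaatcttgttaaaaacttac
TGFB2 intron, closed in CP, chr1:218361429-218361629: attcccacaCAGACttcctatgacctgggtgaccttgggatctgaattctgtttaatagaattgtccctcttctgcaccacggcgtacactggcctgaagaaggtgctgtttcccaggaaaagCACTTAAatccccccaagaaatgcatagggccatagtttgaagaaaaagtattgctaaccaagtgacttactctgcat
BAMBI downstream, closed in CP and present again in CM, chr10:28685292-28685492: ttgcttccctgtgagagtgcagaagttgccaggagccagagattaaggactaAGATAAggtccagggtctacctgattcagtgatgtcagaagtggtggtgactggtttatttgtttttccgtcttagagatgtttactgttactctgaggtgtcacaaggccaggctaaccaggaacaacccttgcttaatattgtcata
BMPR1B intron, opened in CP, chr4:95118534-95118734: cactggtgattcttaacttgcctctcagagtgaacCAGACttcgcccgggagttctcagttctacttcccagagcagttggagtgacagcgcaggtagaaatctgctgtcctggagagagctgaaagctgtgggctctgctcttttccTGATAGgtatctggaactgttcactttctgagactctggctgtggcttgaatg
BMPR1B intron, opened in CM, chr4:94819542-94819742: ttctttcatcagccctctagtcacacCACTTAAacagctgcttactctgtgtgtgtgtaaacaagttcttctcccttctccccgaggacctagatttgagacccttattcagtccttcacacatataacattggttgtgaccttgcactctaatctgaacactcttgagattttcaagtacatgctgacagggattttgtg
TGFBR2 intron, closed in CM, chr3:30667283-30667483: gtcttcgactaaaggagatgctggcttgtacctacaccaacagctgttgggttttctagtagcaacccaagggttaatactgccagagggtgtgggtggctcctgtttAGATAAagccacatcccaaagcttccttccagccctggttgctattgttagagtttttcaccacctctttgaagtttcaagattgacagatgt
BMP10 promoter, minus strand, chr2:68871398-68871647: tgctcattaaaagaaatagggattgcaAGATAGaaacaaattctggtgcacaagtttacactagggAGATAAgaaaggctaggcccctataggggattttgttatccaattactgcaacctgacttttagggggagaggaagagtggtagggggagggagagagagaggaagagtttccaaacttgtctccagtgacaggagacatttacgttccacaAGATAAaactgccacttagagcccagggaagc
The BMP10 promoter held 3 GATA words and no SMAD word. A GATA word was present in 22.4% of the 34943 RefSeq promoters of this length, and 3 or more in 0.944%. No such count is given here for the RefSeq promoters of the other genes of the list. In the TGFBR3 intron a GATA word and a TCF/LEF word overlapped, and a T-box word lay further along the same window. The BMPER intron held 2 GATA words, the BMP5 intron held no word of the list, and the TGFB2 intron held a SMAD word and an NKX word. Such matches describe the sequence and are not evidence of binding.

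Most regions of the pathway lay away from promoters. A region was counted as a promoter region if any of its bases lay within 500 bp of the canonical start site, which held for 51 of the 612, and the others were placed by their summit. Of these, 370 were in introns, 81 downstream, 61 upstream, 21 in coding exons, 15 in 3′ UTRs and 13 within the gene span but outside the canonical transcript. A peak in all 8 libraries was found at 41 of the 51 promoter regions (80.4%) and at 56 of the 561 others (9.98%). Together these were 97 regions, or 15.8% of the pathway's regions beside 9.83% of all regions. At the other end, 225 regions (36.8%) had a peak in 1 library only, beside 40.7% of all regions. A promoter peak in all 8 libraries was present at 40 of the 48 genes (83.3%) beside 67.5% of 19962 protein-coding genes, and at 42 of the 48 if the start site of every protein-coding transcript was taken.

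The promoters without a peak in all 8 libraries were few. GDF2, GDF5 and INHBA had no promoter region at the canonical start site in any library. GDF7, GDF10 and ACVRL1 had promoter peaks in 7 libraries and lacked one in CM replicate 2, the shortest list. The remaining 2 genes were BMP10 and INHBB, both described below.

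To ask which regions appeared or disappeared as cells moved from stage to stage, a region was called opened if it had a peak in both libraries of the later stage and in neither of the earlier, and closed in the reverse case. With 2 libraries against 2 no p below 0.33 can be reached for a single region, so that these calls carry no test. From ESC to MES, 35 regions of the pathway opened (5.72%, beside 6.02% of all regions) and 23 closed (3.76%, beside 3.95%). From MES to CP, 12 opened (1.96%, beside 2.14%) and 32 closed (5.23%, beside 6.13%). From CP to CM, 12 opened (1.96%, beside 1.41%) and 38 closed (6.21%, beside 6.33%). Between the ends of the course, ESC and CM, 26 opened (4.25%, beside 3.15%) and 68 closed (11.1%, beside 13.5%). The pathway thus opened and closed at shares near those of the genome at the 3 steps, with openings ahead of closings only from ESC to MES. Regions with a peak in both libraries of a stage numbered 207 for ESC, 223 for MES, 186 for CP and 134 for CM (33.8%, 36.4%, 30.4% and 21.9%), beside 29.6%, 31.4%, 23.9% and 14.8% of all regions.

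These counts moved with the length of the lists. With each list shortened to the number of peaks in the shortest, 20 regions opened (3.27%, beside 3.13% of all regions) and 11 closed (1.8%, beside 2.54%) from ESC to MES. From MES to CP 12 opened (1.96%, beside 1.81%) and 11 closed (1.8%, beside 2.42%). From CP to CM 13 opened (2.12%, beside 1.95%) and 8 closed (1.31%, beside 2.21%). From ESC to CM 38 opened (6.21%, beside 3.87%) and 18 closed (2.94%, beside 5.12%). The excess of closings over openings toward CM thus turned into an excess of openings in the pathway, but not over all regions. With 1 library standing for its stage the counts rose, and the shares over all regions, given second in each parenthesis, rose with them. For ESC to MES, 56 opened without ESC replicate 2 (9.15% and 9.84%), 105 without MES replicate 1 (17.2% and 18.2%) and 55 without MES replicate 2 (8.99% and 9.08%). At this step 108 closed without ESC replicate 1 (17.6% and 17.9%), 36 without ESC replicate 2 (5.88% and 7.22%) and 40 without MES replicate 2 (6.54% and 7.94%). For MES to CP, 24 opened without MES replicate 2 (3.92% and 4.40%), 67 without CP replicate 1 (10.9% and 11.0%) and 38 without CP replicate 2 (6.21% and 7.21%), and 102 closed without MES replicate 1 (16.7% and 20.5%) and 53 without MES replicate 2 (8.66% and 9.78%). For CP to CM, 24 opened without CP replicate 2 (3.92% and 2.83%), 22 without CM replicate 1 (3.59% and 3.57%) and 50 without CM replicate 2 (8.17% and 8.90%). Here 95 closed without CP replicate 1 (15.5% and 18.4%), 90 without CP replicate 2 (14.7% and 14.1%) and 74 without CM replicate 1 (12.1% and 11.4%). For ESC to CM, 78 opened without CM replicate 2 (12.7% and 11.8%) and 184 closed without ESC replicate 1 (30.1% and 33.0%).

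Regions open at 1 stage alone, by a peak in both of its libraries and not in both of any other stage, numbered 35 for ESC (5.72%, beside 7.47% of all regions), 32 for MES (5.23%, beside 7.00%), 13 for CP (2.12%, beside 2.84%) and 22 for CM (3.59%, beside 2.36%). Of these, 18, 16, 4 and 7 had no peak in any library of another stage. Among patterns of 2 or 3 stages, a peak in both libraries of ESC, MES and CP without that in CM was the most common (40 regions, or 6.54% beside 6.03% of all regions), followed by ESC with MES (27 regions, 4.41% beside 4.70%) and MES with CP (19 regions, 3.10% beside 2.44%). No region of the pathway was shared by ESC and CM alone (beside 0.172%), and 307 regions (50.2%, beside 53.8%) had peaks in both libraries of no stage.

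Among the ligands, the 14 BMP and GDF genes held 132 regions, of which 20 (15.2%, beside 9.83% of all regions) had a peak in all 8 libraries. At the 3 steps 6, 3 and 3 of them opened (4.55%, 2.27% and 2.27%, beside 6.02%, 2.14% and 1.41% of all regions) and 5, 8 and 8 closed (3.79%, 6.06% and 6.06%, beside 3.95%, 6.13% and 6.33%). Between ESC and CM 10 opened (7.58%, beside 3.15%) and 14 closed (10.6%, beside 13.5%). BMP10, a ligand of the embryonic heart needed for the growth of the trabecular myocardium, accounted for 4 of those 10 openings. No ESC library had a peak in any of its 8 regions. Its promoter region (chr2:68871142-68871612) was absent in both ESC libraries and had a fold of 3.39 and 4.05 in MES, 6.97 and 13.1 in CP, then 6.99 and 7.11 in CM. A region 5.8 kb upstream (chr2:68877101-68877662) was likewise absent in ESC and had a fold of 6.10 and 9.41 in MES, 5.78 and 10.8 in CP, then 5.64 and 5.29 in CM. Both regions thus appeared at day 2 and were present in all 6 later libraries. The other 2 openings were a region 2.3 kb upstream with peaks in the CM libraries only (3.65 and 4.07) and a region 17.2 kb downstream of the start site with peaks in CP replicate 2 (6.12) and both CM libraries (6.42 and 5.69).

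BMP2, a ligand that acts in mesoderm and endocardial cushion formation, had a promoter peak at every stage, with folds of 3.77 and 3.70 in ESC, 5.48 and 5.62 in MES, 6.31 and 7.24 in CP, then 5.37 and 5.87 in CM. The ESC libraries were the lowest and did not overlap with any later stage. A region about 20.1 kb downstream of the BMP2 start site had folds between 3.50 and 5.52 in the ESC, MES and CP libraries and no peak in CM. BMP4, which induces mesoderm, had promoter folds of 5.16 and 5.28 in ESC, 3.70 and 4.72 in MES, 4.88 and 5.40 in CP, then 2.85 and 3.69 in CM. The ESC and CM libraries did not overlap there, although the difference was not among those that passed the test below. Around BMP4, a region 7.6 kb upstream had peaks in MES alone (4.06 and 3.94), and a region 13.5 kb downstream of the start site had peaks in ESC (5.28 and 4.98) and MES (3.24 and 4.79) and none later.

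BMP5 and BMP7 are related ligands expressed in many embryonic tissues. The BMP5 promoter held among the highest folds of the list, 8.95 and 10.1 in ESC, 11.8 and 13.4 in MES, 7.69 and 10.6 in CP, then 6.28 and 6.82 in CM, with the CM libraries below all others. The difference between ESC and CM did not pass the test below (log2 difference -0.32; limma, adjusted p = 0.114). In an intron of BMP5, 93.1 kb from the start site, the first sequence above had folds of 7.50 and 8.54 in ESC and no peak in the 6 later libraries. BMP7 had 7, 10, 6 and 4 regions with peaks in both libraries of ESC, MES, CP and CM out of 22. The shares over all regions were 29.6%, 31.4%, 23.9% and 14.8%. An intronic BMP7 region 34.4 kb from the start site had folds of 6.76, 6.84, 5.83 and 6.38 in the ESC and MES libraries and was absent afterwards. A BMP7 region 107.3 kb downstream of the start site was present in the ESC libraries only (5.87 and 4.63).

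The promoters of the other BMP and GDF ligands had peaks in all libraries at BMP3, BMP6, BMP8A, BMP8B and GDF6, with folds from 3.83 at BMP3 in CM replicate 2 to 8.39 at BMP8A in CP replicate 2. BMP8A and BMP8B are closely similar copies, and reads that map to both would not pass the mapping quality filter of the study. At GDF7 and GDF10 the folds ran from 2.40 to 5.49 in the 7 libraries with a peak.

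The 5 activin and TGF-beta ligand genes held 51 regions, 12 of them (23.5%, beside 9.83% of all regions) with a peak in all 8 libraries. At the 3 steps 2, 0 and 1 opened (3.92%, 0% and 1.96%, beside 6.02%, 2.14% and 1.41% of all regions) and 1, 7 and 3 closed (1.96%, 13.7% and 5.88%, beside 3.95%, 6.13% and 6.33%). TGFB2, the TGF-beta isoform known from epicardial and cushion development, accounted for 6 of the 7 closings from MES to CP. Of its 14 regions, 7 had peaks in both ESC libraries, 8 in both MES libraries, 3 in both CP libraries and 1, the promoter, in both CM libraries. The shares over all regions were 29.6%, 31.4%, 23.9% and 14.8% at these stages. The intronic region whose sequence is shown had folds of 6.05 and 5.56 in ESC and 5.83 and 6.68 in MES and no peak in CP or CM. A further intronic region 94.3 kb from the start site had folds of 7.59 and 8.01 in ESC, 4.52 and 4.66 in MES and none later. The region 63.8 kb into TGFB2 reached its highest folds in MES, at 3.87 and 6.55 in ESC, 10.7 and 12.9 in MES and 5.45 and 8.60 in CP, and was absent in CM. The TGFB2 promoter itself stayed between 4.18 and 5.72 in the 8 libraries.

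INHBB, which encodes the beta subunit of activin B, had a promoter peak near the start site in the MES libraries alone (2.23 and 2.76), both low folds, and a second small region 441 bp after the start site in CM replicate 1 (2.38). INHBA, the subunit of activin A, had no peak at its canonical start site, but a region 2.2 kb before it, within the gene span, had folds of 7.53 and 7.13 in ESC, 8.19 and 9.06 in MES, 5.98 and 10.8 in CP, then 6.30 and 6.97 in CM. In these unscaled folds the CP libraries spanned those of every other stage. The ESC, MES and CM libraries did not overlap with one another and were lowest in CM and highest in MES. After the centring on library medians described below, however, CM was not lower than ESC (log2 difference 0.07; limma, adjusted p = 0.785). TGFB1 and TGFB3 each had a promoter region with a peak in all 8 libraries, with folds of 3.47 to 4.39 and 4.56 to 5.87.

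**Figure D1:**
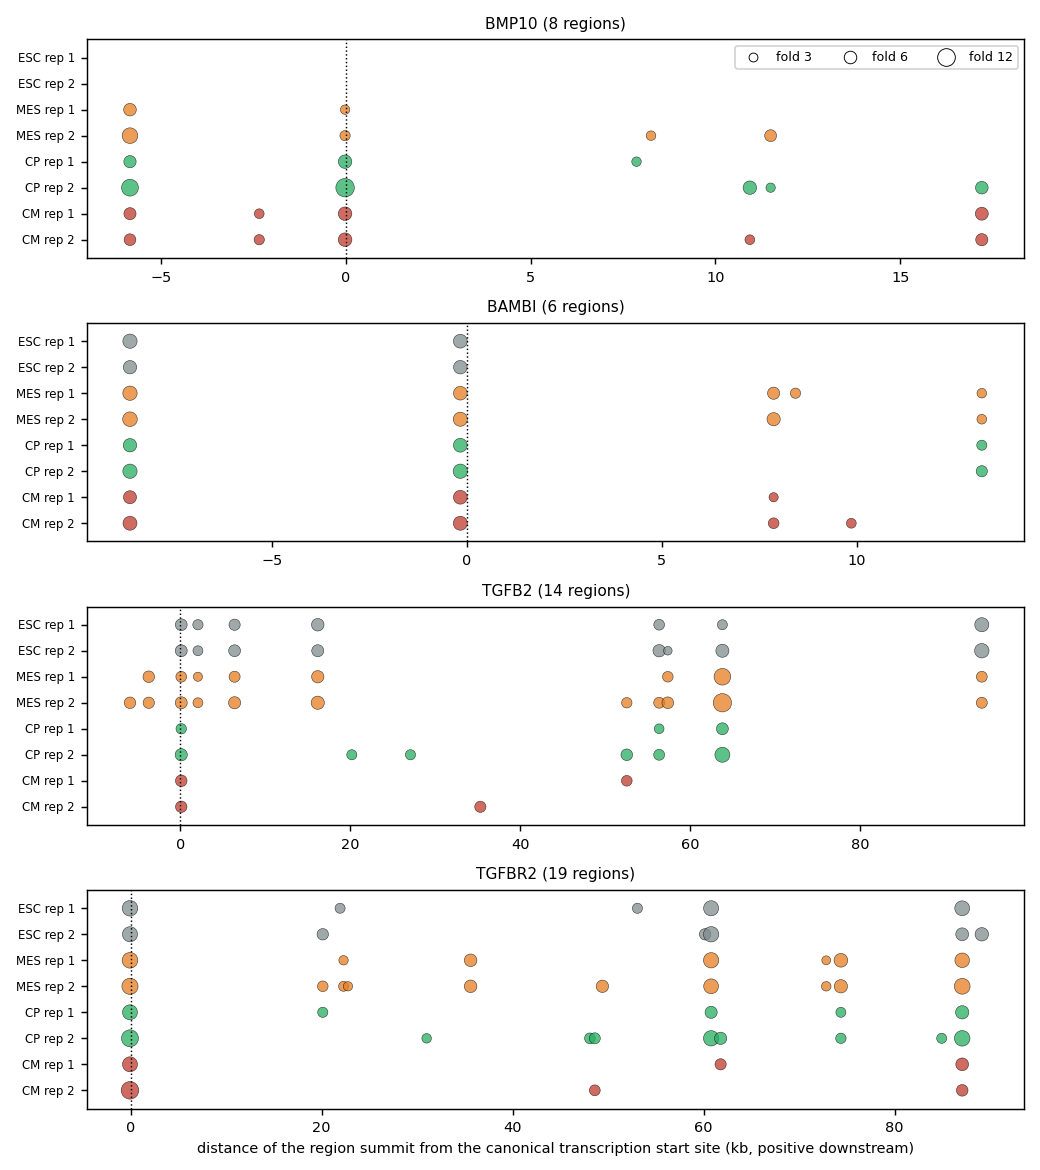
Peaks around BMP10, BAMBI, TGFB2 and TGFBR2 by library (rows, coloured by stage) against the distance of the region summit from the canonical start site in kb (horizontal axis, start site dotted), with the symbol area proportional to the fold. BMP10 has no symbol in ESC, the distal symbols of TGFB2 thin out after MES, and the promoter symbols of BAMBI, TGFB2 and TGFBR2 are present in all 8 libraries.

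The 11 receptor genes held 221 regions, the largest share of the list, and 21 of them (9.5%, beside 9.83% of all regions) had a peak in all 8 libraries. At the 3 steps 15, 4 and 3 opened (6.79%, 1.81% and 1.36%, beside 6.02%, 2.14% and 1.41% of all regions) and 10, 9 and 19 closed (4.52%, 4.07% and 8.60%, beside 3.95%, 6.13% and 6.33%). Promoters of all receptor genes except ACVRL1 had a region with peaks in every library, with folds from 4.02 at ACVR2B to 11.8 at TGFBR2. ACVRL1, a type I receptor best known from endothelium, had folds of 3.06 to 3.78 in 7 libraries.

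TGFBR3 encodes betaglycan, a co-receptor that presents TGF-beta 2 to the signalling receptors. Its intronic region 10.0 kb from the start site (chr1:91875991-91876668) was absent in ESC, had the highest mean fold among the pathway's regions that opened at this step (10.6 and 11.0 in MES), had folds of 7.90 and 4.75 in CP and was absent in CM. ACVR1, a type I receptor of BMPs, had a region 22.9 kb into the gene with folds of 9.65 and 10.1 in MES and 5.32 and 4.71 in CP. Neither region had a peak in an ESC or CM library, and in both each MES library was above each CP library. Both were picked for absence in ESC and a high fold in MES. Their absence in ESC was thus fixed by the choice, and MES above CP was favoured by it. A second ACVR1 region 114.6 kb into the gene was present in ESC only (5.92 and 4.63).

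TGFBR2, the type II receptor of TGF-beta, had 19 regions. Of these, 3, 7, 4 and 2 had peaks in both libraries of ESC, MES, CP and CM (beside 29.6%, 31.4%, 23.9% and 14.8% of all regions). From ESC to MES 4 opened (beside 6.02%), and from MES to CP 3 closed (beside 6.13%). One of those that opened, 35.6 kb into the gene, had folds of 6.06 and 6.08 in MES and no peak in any other library. Another, 74.4 kb into the gene, had folds of 7.19 and 6.76 in MES and 3.86 and 4.15 in CP. The region of TGFBR2 whose sequence is shown was present through day 5, at 8.75 and 9.05 in ESC, 8.98 and 8.40 in MES and 5.64 and 9.02 in CP, and absent in CM.

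BMPR1B is a type I BMP receptor. Of its 51 regions, 12, 15, 14 and 3 had peaks in both libraries of ESC, MES, CP and CM (beside 29.6%, 31.4%, 23.9% and 14.8% of all regions). Different intronic positions in this gene were open at different stages. The region 351.4 kb from the start site had folds of 7.81 and 9.04 in MES, a peak of 5.81 in CP replicate 2, and none in the other 5 libraries. Further on, at 360.7 kb, a region was absent in ESC and MES and had folds of 6.62 and 8.36 in CP and 5.56 in CM replicate 1. The region at 173.9 kb had peaks in the CP libraries alone, at 3.98 and 10.3, and these differed widely. The region at 61.7 kb had folds of 6.64 and 6.22 in CM and 3.85 in MES replicate 2. Among the closings, the region at 286.5 kb had folds between 4.75 and 8.51 in the ESC, MES and CP libraries and no peak in CM. BMPR1A, the paralogous receptor that is required for heart development, had peaks in both libraries of the 4 stages at 12, 8, 10 and 6 of 32 regions, beside the same shares. Its region 144.5 kb into the gene was absent in ESC and MES and had folds of 4.71 and 7.61 in CP, then 8.42 and 6.80 in CM.

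**Figure D2:**
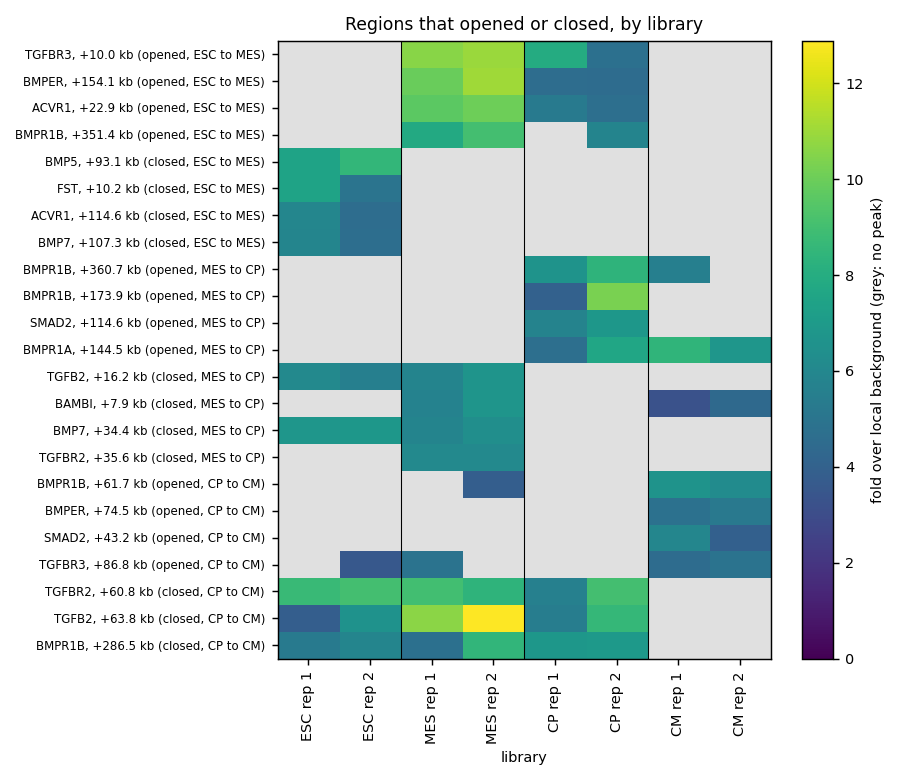
Fold over local background (colour, grey where no peak was called) in the 8 libraries (columns) for the 23 distinct regions of the pathway with the highest mean fold among those that opened or closed at each step (rows, with the gene, the distance from its start site and the call). The rows labelled as opened from ESC to MES have no peak in CM. Of the rows labelled as closed from MES to CP, 2 (TGFBR2 and BAMBI) are also absent in ESC, and the BAMBI region has peaks in CM.

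The 8 SMAD genes held 123 regions, 17 of them (13.8%, beside 9.83% of all regions) with a peak in all 8 libraries. At the 3 steps 6, 3 and 3 opened (4.88%, 2.44% and 2.44%, beside 6.02%, 2.14% and 1.41% of all regions) and 5, 5 and 4 closed (4.07%, 4.07% and 3.25%, beside 3.95%, 6.13% and 6.33%). All 8 promoters had a peak in every library. SMAD5, a receptor SMAD of the BMP branch, and SMAD4, the partner shared by both branches, were the highest of them, with folds of 8.83 to 11.5 and 8.54 to 10.1. SMAD7, an inhibitory SMAD, was the lowest at 3.38 to 4.23. SMAD3 is a receptor SMAD of the TGF-beta branch. Of its 40 regions, 9, 10, 7 and 8 had peaks in both libraries of the 4 stages (beside 29.6%, 31.4%, 23.9% and 14.8% of all regions). SMAD2, which acts beside SMAD3, had a region in its 3′ UTR, 114.6 kb from the start site, with peaks in CP alone (5.77 and 6.83), and an intronic region 43.2 kb from the start site with peaks in CM alone (5.92 and 3.96).

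The ID genes, whose products bind basic helix-loop-helix factors and keep them off DNA, had the largest share of regions present throughout among the 6 role groups. Of their 22 regions 13 (59.1%, beside 9.83% of all regions) had a peak in all 8 libraries. At the 3 steps none opened (beside 6.02%, 2.14% and 1.41% of all regions) and none closed (beside 3.95%, 6.13% and 6.33%). Counts among 22 regions are too small to compare with these shares. Between ESC and CM 1, a region 3.4 kb downstream of the ID3 start site, closed (4.55%, beside 13.5%). That region had folds of 3.48 and 3.37 in ESC, 1.97 and 2.60 in MES and 2.15 in CP replicate 1. The ID1 promoter had folds of 4.38 and 4.13 in ESC, 4.70 and 4.45 in MES, 4.31 and 4.54 in CP, then 4.44 and 5.17 in CM. The CP libraries overlapped with every other stage and MES with CM, while both ESC libraries were below those of MES and CM. The ID2 promoter ran from 4.85 and 4.97 in ESC to 3.71 and 3.84 in CM, which did not overlap. After the centring described below, that log2 difference was -0.16 (limma, adjusted p = 0.530). The ID4 promoter lay between 6.20 and 7.51. With all libraries none of the 4 promoters passed the test of the fold described below. The ID3 promoter passed from CP to CM when CP replicate 1 was left out (limma, adjusted p = 0.0249, beside 0.106 with all libraries).

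The 6 antagonist genes held 63 regions, 14 of them (22.2%, beside 9.83% of all regions) with a peak in all 8 libraries. All 6 promoters had peaks in every library. At the 3 steps 6, 2 and 2 regions opened (9.52%, 3.17% and 3.17%, beside 6.02%, 2.14% and 1.41% of all regions) and 2, 3 and 4 closed (3.17%, 4.76% and 6.35%, beside 3.95%, 6.13% and 6.33%). BAMBI, a membrane pseudoreceptor that lacks a kinase, had a nearly constant promoter, with folds of 7.34 and 7.01 in ESC, 7.19 and 7.62 in MES, 7.32 and 7.89 in CP, then 7.31 and 7.53 in CM. A region 7.9 kb downstream of the BAMBI start site was absent in ESC, had folds of 5.71 and 6.71 in MES, was absent in CP, and had folds of 3.26 and 4.41 in CM. It was the single region of the pathway with peaks in both libraries of MES and CM alone (0.163%, beside 0.233% of all regions). A second BAMBI region, 13.2 kb from the start site, was present in MES (3.54 and 3.62) and CP (3.91 and 4.83) and in no other stage.

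BMPER is a secreted modulator that binds BMPs. Of its 38 regions, 8, 14, 8 and 7 had peaks in both libraries of the 4 stages (beside 29.6%, 31.4%, 23.9% and 14.8% of all regions). Its intronic region 154.1 kb from the start site had folds of 9.94 and 11.1 in MES and 4.59 and 4.55 in CP, with no peak in ESC or CM. Like the TGFBR3 and ACVR1 regions, it was picked for absence in ESC and a high fold in MES. Another, 74.5 kb from the start site, had peaks in CM alone (4.79 and 5.19). FST encodes follistatin, which sequesters activins, and a region 10.2 kb downstream of its start site was present in ESC only (7.46 and 4.98). NOG, CHRD and GREM1, which encode extracellular BMP antagonists, had promoter folds of 2.51 to 3.28, 2.82 to 4.38 and 3.15 to 5.57, the last over 2 promoter regions.

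Whether regions that were present throughout became stronger or weaker was tested on the fold itself, for the 28115 regions with a peak in all 8 libraries, 97 of them in the pathway. The log2 folds were centred on the median of each library and fitted with limma, with adjusted p values over all 28115 regions. From ESC to MES 1 region of the pathway was higher in MES (1.03%, beside 0.694% of all regions) and 0 were lower (beside 0.178%), with 10 of the 97 (10.3%, beside 8.34% of all regions) at an unadjusted p under 0.05. From MES to CP 0 were higher (beside 0.245%) and 0 lower (beside 0.21%) by limma, with 9 of the 97 (9.28%, beside 9.95%) at an unadjusted p under 0.05. From CP to CM 1 was higher (1.03%, beside 0.391%) and 0 were lower (beside 1.71%), with 21 of the 97 (21.6%, beside 19.5%) at an unadjusted p under 0.05. From ESC to CM 6 were higher (6.19%, beside 6.28%) and 4 lower (4.12%, beside 6.04%). In that comparison 38 of the 97 (39.2%, beside 31.7%) were at an unadjusted p under 0.05. This gap was not tested. The median log2 difference over the 97 regions was 0.00, 0.04, 0.13 and 0.15 in these comparisons, beside -0.02, 0.03, 0.08 and 0.10 over all regions.

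The direction depended on the centring. The libraries' median folds ran from 5.90 in CM replicate 1 to 8.31 in CP replicate 2. Without centring the median log2 difference over all regions was -0.12 from ESC to CM and -0.205 from CP to CM, and the pathway's calls became 0 higher and 5 lower from ESC to CM, 0 higher and 1 lower from CP to CM and 0 from ESC to MES. Higher and lower are therefore relative to the typical region of a library. The ESC to CM count also moved when a library was left out, to 3 without ESC replicate 1, 2 without ESC replicate 2, 3 without CM replicate 2, 18 without CP replicate 1 and 17 without CP replicate 2.

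The region higher in MES lay in an intron of BMPR2, the type II BMP receptor, 42.5 kb from its start site (chr2:202418405-202419129). Its folds were 5.52 and 5.87 in ESC, 10.4 and 12.2 in MES, 7.42 and 8.89 in CP, then 4.31 and 5.68 in CM, so that the MES libraries were above all others. The log2 difference between MES and ESC was 0.88 ± 0.16 (SE; limma, adjusted p = 0.0141). It lost its call when either ESC library or either MES library was left out, with an adjusted p of 0.0999, 0.0769, 0.130 and 0.194 in that order, and also without centring (0.0866) or with summed folds (0.138), although the difference itself stayed between 0.83 and 0.99 over 13 alternatives. The BMPR2 promoter stayed between 7.43 and 8.88.

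The region higher in CM than in CP lay 27.4 kb into BMPER. Its folds were 10.3 and 8.91 in ESC, 8.24 and 9.61 in MES, 5.19 and 7.12 in CP, then 7.49 and 8.33 in CM, lowest in CP. The log2 difference was 0.66 ± 0.15 (SE; limma, adjusted p = 0.0288). It kept its call under 5 of 13 alternatives, and was lost without MES replicate 1 (adjusted p = 0.0548) or 2 (0.0515), CP replicate 1 (0.0595) or 2 (0.0685), or CM replicate 1 (0.0735) or 2 (0.138). It was also lost with summed folds (adjusted p = 0.118) and without centring, where the difference was 0.38 (limma, adjusted p = 0.279).

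Of the 6 regions higher in CM than in ESC, 3 were promoters, beside 41 of the 97 regions tested. The BMP2 promoter, whose folds are given above, differed by 0.81 ± 0.16 (SE; limma, adjusted p = 0.00564), and lost its call without ESC replicate 2 (0.0553) and without centring (0.0718). The FST promoter had folds of 2.84 and 3.08 in ESC, 3.86 and 3.41 in MES, 3.66 and 3.58 in CP, then 3.94 and 4.03 in CM, and differed by 0.65 ± 0.17 (SE; limma, adjusted p = 0.0236). The TGFBR3 promoter had folds of 5.94 and 6.48 in ESC, 7.23 and 7.91 in MES, 8.35 and 8.94 in CP, then 7.75 and 7.96 in CM, and differed by 0.56 ± 0.15 (SE; limma, adjusted p = 0.0258). At these 3 promoters every later library was above both ESC libraries. An intronic region 3.3 kb into BMP4 differed by 0.64 (limma, adjusted p = 0.0223) and a region 3.0 kb upstream of ID3 by 0.55 (limma, adjusted p = 0.0480). The last was a region downstream of ACVR1B that is also the promoter of TAMALIN. It differed by 0.86 (limma, adjusted p = 0.0087), but by -0.01 when the folds of all peaks in the region were summed, and it lost its call without ESC replicate 2 (limma, adjusted p = 0.134).

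The 4 regions lower in CM were all intronic, whereas 56 of the 97 regions tested lay away from promoters. These counts are too small to compare. The TGFBR3 region 121.5 kb from the start site had folds of 8.43 and 9.76 in ESC, 8.19 and 10.5 in MES, 6.07 and 9.27 in CP, then 4.64 and 4.27 in CM, and fell by 0.81 on the log2 scale (SE 0.16; limma, adjusted p = 0.00666). The ACVR1 region 124.4 kb from the start site had folds of 9.15 and 8.16 in ESC, 6.56 and 9.32 in MES, 6.84 and 7.71 in CP, then 3.77 and 4.86 in CM, and fell by 0.79 (SE 0.18; limma, adjusted p = 0.0113). In both regions the CM libraries were below the 6 others. The TGFBR3 call was lost without ESC replicate 2 (log2 difference -0.724) or CM replicate 2 (-0.593). The ACVR1 call was lost without ESC replicate 1 (log2 difference -0.702) or CM replicate 1 (-0.635), and also with summed folds (limma, adjusted p = 0.0649). Regions 41.6 kb into ACVR1B and 72.3 kb into SMAD6, an inhibitory SMAD, fell by 0.77 and 0.59 (limma, adjusted p = 0.0276 and 0.0366). TGFBR3 thus held a promoter that was relatively higher in CM and an intronic region that was lower.

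**Figure D3:**
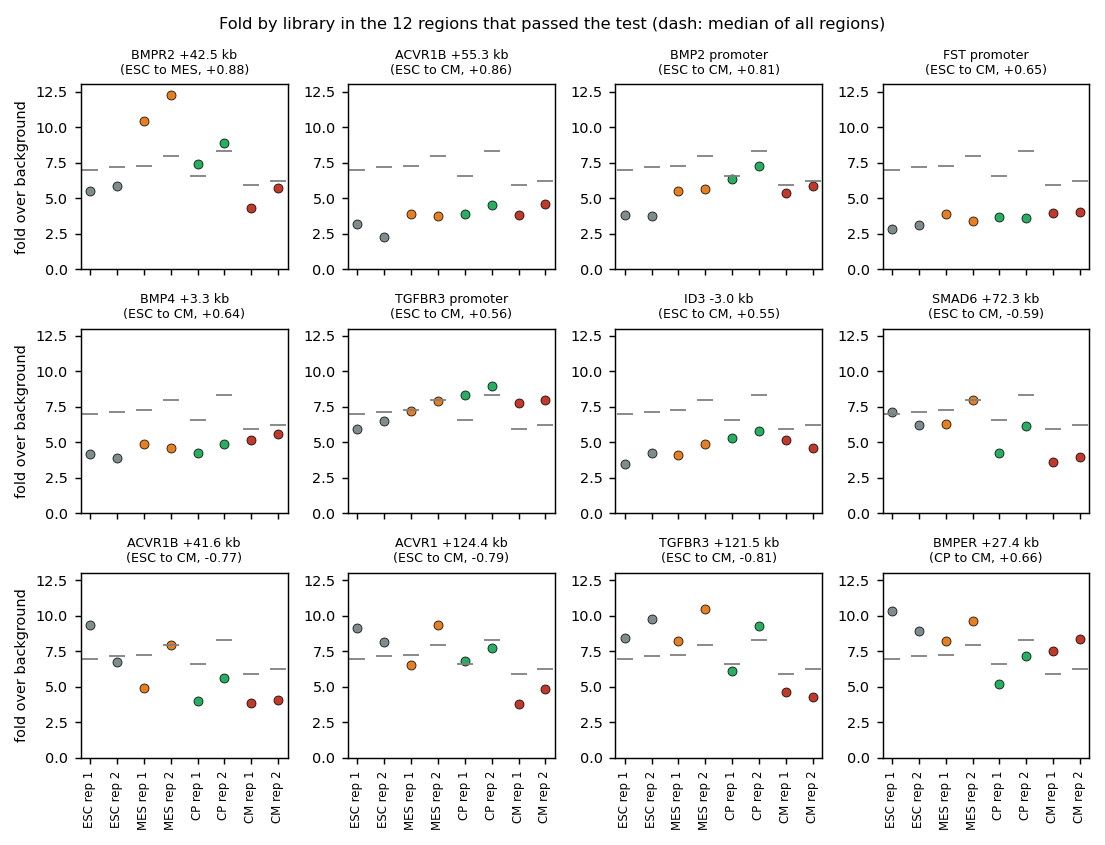
Fold over local background (vertical axis) in the 8 libraries (points, coloured by stage) for the 12 regions of the pathway that passed the test in a comparison, with the gene, position, comparison and log2 difference above each panel and a grey dash at the median fold of all 28115 regions in that library. The BMPR2 region peaks in MES at 10.4 and 12.2, and the lowest fold of each of the 4 regions lower in CM is in a CM library.

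Other regions with the smallest adjusted p in a comparison did not pass the threshold. From ESC to MES these were the promoters of BMP2 (log2 difference 0.47; limma, adjusted p = 0.309), BMP7 (0.44; 0.331) and BMP4 (-0.43; 0.452). From MES to CP they were an intron of BMP3 (-0.61; limma, adjusted p = 0.130), the BMPER region above (-0.51; 0.168), the BMP5 promoter (-0.44; 0.201) and the BMPR2 region above (-0.44; 0.311). From CP to CM they were a coding exon of SMAD1 (-0.57; limma, adjusted p = 0.0986), the BMP4 intron (0.52; 0.120) and the ID3 promoter. The SMAD1 region passed without CP replicate 1 (limma, adjusted p = 0.0448), with folds of 8.71 and 8.01 in ESC, 10.5 and 12.8 in MES, 7.26 and 11.6 in CP, then 4.31 and 5.94 in CM, where both libraries were below all others.

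The short sequence words were counted in the window around the summit of every region. A GATA word was present in 166 of the 612 regions (27.1%, beside 27.3% of all regions). By stage, it was present in 6 of 35 regions open in ESC alone (17.1%, beside 21.6% of all such regions), 13 of 32 in MES alone (40.6%, beside 39.4%), 5 of 13 in CP alone (38.5%, beside 37.0%) and 12 of 22 in CM alone (54.5%, beside 49.1%), and in 15 of the 97 regions open throughout (15.5%, beside 12.0%). The share thus rose from ESC to CM as it did over the genome. The T-box word was found in 4 of 32 regions open in MES alone (12.5%, beside 4.91%) and in 0 of 35 in ESC alone, on counts too small to compare. The SMAD word was present in 229 regions (37.4%, beside 41.1%), and the GC-rich SMAD word in 53 (8.66%, beside 4.55%), with 27 of these among the 97 regions open throughout (27.8%, beside 19.8%).

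A list of 50 other genes of the pathway, among them NODAL, the LEFTY genes, latent TGF-beta binding proteins and SMURF ubiquitin ligases, was counted in the same way. They held 531 further regions, 93 of them with a peak in all 8 libraries, beside 9.83% of all regions. A promoter peak in every library was present at 33 of the 50 genes, beside 67.5% of protein-coding genes. At the 3 steps 26, 7 and 12 of the 531 opened (4.90%, 1.32% and 2.26%, beside 6.02%, 2.14% and 1.41% of all regions) and 19, 32 and 40 closed (3.58%, 6.03% and 7.53%, beside 3.95%, 6.13% and 6.33%). Between ESC and CM 16 opened (3.01%, beside 3.15%) and 76 closed (14.3%, beside 13.5%). By limma 0 of the 93 were called from ESC to MES, with 9 (9.68%, beside 8.34% of all regions) at an unadjusted p under 0.05. From MES to CP 1 was higher (1.08%, beside 0.245%), and from CP to CM 1 was higher (1.08%, beside 0.391%). From ESC to CM 10 were higher (10.8%, beside 6.28%) and 1 was lower (1.08%, beside 6.04%). In these comparisons the limma test gave an unadjusted p under 0.05 at 4 regions from MES to CP (4.3%, beside 9.95%). It did so at 11 from CP to CM (11.8%, beside 19.5%) and 24 from ESC to CM (25.8%, beside 31.7%).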

How the data were processed

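Accessibility was measured by ATAC-seq in 8 libraries of RUES2 cells, 2 at each of 4 stages. According to the study's methods and processing notes, the authors mapped reads to hg38 with BWA (0.7.13), discarded secondary alignments and those of mapping quality 30 or below, dropped duplicates (Picard) and ran MACS2 (2.1.0) on each library at a q of 0.01, with reads shifted by 100 bp and extended by 200 bp. The deposited lists give each peak a fold (a ratio over local background, not scaled between libraries) and, also deposited, its p-value and q-value as -log10.

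Peaks on chromosomes 1 to 22 and X were merged over libraries (at least 1 shared base), and a region took the highest fold of its peaks per library. Canonical start sites came from GENCODE 44. Log2 folds of regions with a peak in all libraries, centred on each library's median, were fitted with limma (3.58.1, R 4.3.3; 1 mean per stage, trended prior, Benjamini-Hochberg, threshold 0.05). The method was tested on simulated data. The lists hold no read counts, so no count model was used and depth is unknown. Fold differences of named regions are relative to the centring.

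Named were every promoter, up to 4 opened and 4 closed regions per step with the highest mean fold, and up to 4 regions per comparison with the smallest adjusted p. Regions of BMP2, BMP4, BMP5, BMP7, BMP10, INHBA, INHBB, TGFB2, TGFBR2, ID3 and BAMBI beyond this rule, and those beyond the first 4 that passed the test, were chosen after their values were seen. The genes and lists were chosen with earlier results of these data known. Alternatives were another normalisation, threshold, overlap, list length, gene span or start site, summed folds, the replicate block, and leaving out each library.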

Additional observations from a re-analysis of the deposited data

How the results depend on the processing

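Of the alternatives, requiring a -log10 q of at least 5, a cover of 50% of the region, no 10 kb flanks or quantile normalisation moved no count by over 1.5 times. Lists of equal length gave 20 opened and 11 closed from ESC to MES, and 11, 8 and 18 closed from MES to CP, CP to CM and ESC to CM. The shares over all regions under that setting are given above. Of the 24 calls on named opened or closed regions, 17 held there, 19 with 50% cover, 21 without flanks and 23 at the higher q. Without centring, fold calls were 0 from ESC to MES and 5 from ESC to CM, and with summed folds 0 from ESC to MES, 0 from CP to CM and 4 from ESC to CM, where the ACVR1B region at the TAMALIN promoter reversed to -0.00722. Leaving out 1 library at a time gave 35 to 105 opened and 23 to 108 closed from ESC to MES, 12 to 67 and 32 to 102 from MES to CP, 12 to 50 and 38 to 95 from CP to CM, and 26 to 78 and 68 to 184 from ESC to CM. The shares over all regions for both ends of each range are given above. Fold calls then ran from 0 to 1, 0 to 1, 0 to 2 and 2 to 18 in that order. Fewer libraries make an opening or closing easier to meet, and the cause of the other changes was not tested. Same-numbered libraries deviated together from their stage means with correlations, across regions, of 0.129 (ESC and MES), 0.133 (ESC and CP), 0.192 (MES and CP), -0.12 (ESC and CM), 7.36e-05 (MES and CM) and -0.00468 (CP and CM). The pairs without CM were over 0.1 and those with CM were not, so that the numbers were not taken to pair all 8 libraries. With the replicate block, 1, 0, 1 and 12 regions of the pathway were called.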
